A study of Canis lupus familiaris with 29 samples.

Results

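The genes described are MMP1 and MMP13, which encode collagenases, MMP9, which encodes a gelatinase, and TIMP1, which encodes a secreted inhibitor of these proteases. They were found as the probe sets whose platform annotation gives only that gene symbol, 8 of the 42924 probe sets that are not array controls, and are 4 of the 15115 genes so named. MMP1 and MMP13 have 2 probe sets each, MMP9 has 3 and TIMP1 has 1. Of these, 6 reached log2 5 in at least 3 of 29 arrays and entered the tests, with 16571 probe sets in all. The remaining 2, both of MMP9, had means between 1.68 and 2.01 in every group. Unless another is named, the value of a gene is that of its probe set with the highest mean. The genes were chosen by their measured differences between HGF and control and between 3D and 2D, so those differences are given as a description, without a test.

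Matrix metalloproteinases are zinc enzymes that are secreted or held at the cell surface as inactive precursors and are switched on by removal of a propeptide. Collagenases cut the intact triple helix of fibrillar collagens, and gelatinases digest the unwound chains and basement membrane collagen. TIMP proteins bind the active site and block it, and TIMP1 also binds the precursor of MMP9. In epithelial cells the transcription of many of these genes depends on AP-1 and ETS factors downstream of ERK and, for MMP9, on NF-kB.

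Messenger RNA was measured on Affymetrix canine arrays in MDCK type II cells, an established epithelial line from dog kidney, grown in collagen (3D) or flat (2D). In each culture the cells had HGF (hepatocyte growth factor, the ligand of the receptor MET) with U0126, HGF with PD-98059, HGF alone, or neither HGF nor inhibitor (control). Both compounds block MEK, the kinase directly upstream of ERK, and they have different chemical structures. In 3D there were 3 arrays with U0126, 3 with PD-98059, 4 with HGF and 4 controls, and in 2D there were 3, 4, 4 and 4. No dose or time is given in the sources used here, and neither inhibitor was given without HGF. Levels are log2 values, differences are log2 differences of group means with the standard error of limma's fit, and a probe set changed where its adjusted p was below 0.05. Means under log2 5 are called dim, and folds to or from them rest on signal near the bottom of the scale.

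The number of arrays limits the precision, and nothing in the labels says that the arrays of a group came from separate cultures, so p-values measure only a spread that may be technical. The labelled cell type was checked on its markers: 6 of the 9 kidney epithelial markers with a probe set reached log2 5 in some array, among them CDH16, EPCAM and KRT18, while CDH1, PAX8 and PAX2 did not. None of 8 fibroblast and 5 endothelial markers reached it, and of 8 leukocyte markers 1 did, the lysosomal protein CD68. In bulk RNA, fewer cells of a type and less RNA per cell cannot be told apart. The 4 arrays with HGF in 3D differed most among themselves, with a lowest correlation of 0.964, against 0.987 or more within every other group. An RNA-quality index was taken from control probe sets for EEF1A1, GAPDH and ACTB, as the mean of their 3′ signal minus the signal nearer the 5′ end. It was 0.838 ± 0.048 (SD, n = 4) with HGF in 2D and between 1.23 and 1.53 in the other 2D arrays.

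MMP1, the interstitial collagenase, reached log2 5 in 7 of the 8 arrays with HGF alone and in no other array. In 3D its level was 3.29, 3.31 and 3.30 with U0126 and 3.47, 3.29 and 3.39 with PD-98059. It was 9.54, 9.59, 10.81 and 11.17 with HGF, against 3.33, 3.25, 3.41 and 3.15 in control. The 4 HGF arrays in 3D stood far above all others, while the arrays of the other 3 groups in 3D overlapped and were dim. In 2D the level was 3.25, 3.23 and 3.28 with U0126 and 3.31, 3.25, 3.26 and 3.33 with PD-98059. It was 5.27, 6.15, 3.66 and 7.42 with HGF, against 3.22, 3.17, 3.27 and 3.19 in control. The 2D HGF arrays lay above every other 2D array but were widely spread, and 1 of them was itself dim. As a description, HGF over control was 6.99 (127-fold) in 3D and 2.41 in 2D, 3D over 2D was 4.65 with HGF, and 3D over 2D control was 0.07. Over the 8 groups the order began with HGF in 3D (10.28 ± 0.83, SD, n = 4) and HGF in 2D (5.63 ± 1.58, SD, n = 4), whose arrays did not overlap, and the other 6 groups had means from 3.21 to 3.38 with overlapping neighbours. Within the 3D HGF arrays the RNA-quality index was 2.46, 1.73, 1.42 and 1.09, so that the arrays with the lower index had the higher MMP1 level. With the index as a covariate, the MMP1 differences from HGF in 3D were -6.92 with PD-98059 and -7.04 with U0126.

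MMP13, collagenase-3, was high in collagen with or without HGF, and in 2D with HGF alone. In 3D its level was 8.21, 8.16 and 8.63 with U0126 and 11.06, 10.58 and 11.01 with PD-98059. It was 12.93, 12.81, 13.22 and 13.39 with HGF, against 12.41, 12.69, 12.39 and 12.57 in control. The 4 groups in 3D did not overlap and ran from U0126 at the bottom to HGF at the top, although by the other probe set HGF and control overlapped. In 2D the level was 4.46, 2.58 and 2.58 with U0126 and 4.49, 4.44, 4.43 and 4.92 with PD-98059. It was 10.88, 10.39, 11.18 and 11.15 with HGF, against 2.57, 3.77, 4.48 and 4.35 in control. In 2D only the HGF arrays reached log2 5, and the arrays of the other 3 groups were dim and overlapped. As a description, HGF over control was 0.57 in 3D and 7.11 (138-fold, from a dim level) in 2D, and 3D over 2D was 8.72 (422-fold) in control and 2.19 with HGF. In the order over 8 groups HGF in 2D (10.90 ± 0.36, SD, n = 4) and PD-98059 in 3D (10.88 ± 0.26, SD, n = 3) stood next to each other and overlapped.

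MMP9, a gelatinase best known from leukocytes, was readable in 3D alone and on 1 of its 3 probe sets, and in 3D it was lowest with HGF. In 3D its level was 7.59, 7.67 and 8.12 with U0126 and 8.65, 8.84 and 9.15 with PD-98059. It was 6.61, 7.06, 6.80 and 6.27 with HGF, against 8.98, 8.82, 8.81 and 8.93 in control. The HGF arrays were the lowest in 3D, the U0126 arrays came next, and the PD-98059 and control arrays overlapped at the top. In 2D all 15 arrays were dim, with 2.88, 2.44 and 2.66 with U0126, 2.62 to 3.12 with PD-98059, 3.41 to 3.996 with HGF and 1.94 to 3.71 in control. As a description, HGF over control was -2.20 (4.59-fold lower) in 3D and 1.12 in 2D, between dim levels, and 3D over 2D was 6.17 (71.8-fold) in control and 2.85 with HGF. CD68 reached 4.70 to 6.79 in the 2D HGF arrays, against 2.70 to 2.85 in 2D control, and the summed leukocyte list reached 6.21 to 7.31 against 5.76 to 5.82, while the other 7 leukocyte markers stayed at or below 3.53. Its part in the dim 2D values of MMP9 was not tested.

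TIMP1 had nearly the same high level with HGF in both cultures and fell to near or below log2 5 with U0126. In 3D its level was 4.80, 4.97 and 3.68 with U0126 and 6.97, 7.36 and 7.33 with PD-98059. It was 13.30, 13.85, 13.90 and 13.61 with HGF, against 6.03, 5.0046, 6.07 and 5.24 in control. The HGF arrays stood far above the rest, the PD-98059 arrays lay above every control array, and the U0126 arrays lay below every control array. In 2D the level was 4.96, 5.08 and 4.97 with U0126 and 3.74, 4.67, 5.09 and 3.67 with PD-98059. It was 13.95, 13.84, 13.88 and 13.74 with HGF, against 6.09, 5.97, 6.23 and 6.18 in control. Both sets of 2D inhibitor arrays overlapped and lay below every 2D control array. As a description, HGF over control was 8.08 (270-fold) in 3D and 7.74 (213-fold) in 2D, and 3D over 2D was -0.53 in control and -0.19 with HGF. The groups HGF in 2D (13.85 ± 0.09, SD, n = 4) and HGF in 3D (13.66 ± 0.27, SD, n = 4) were neighbours at the top of the order and overlapped.

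**Figure D1:**
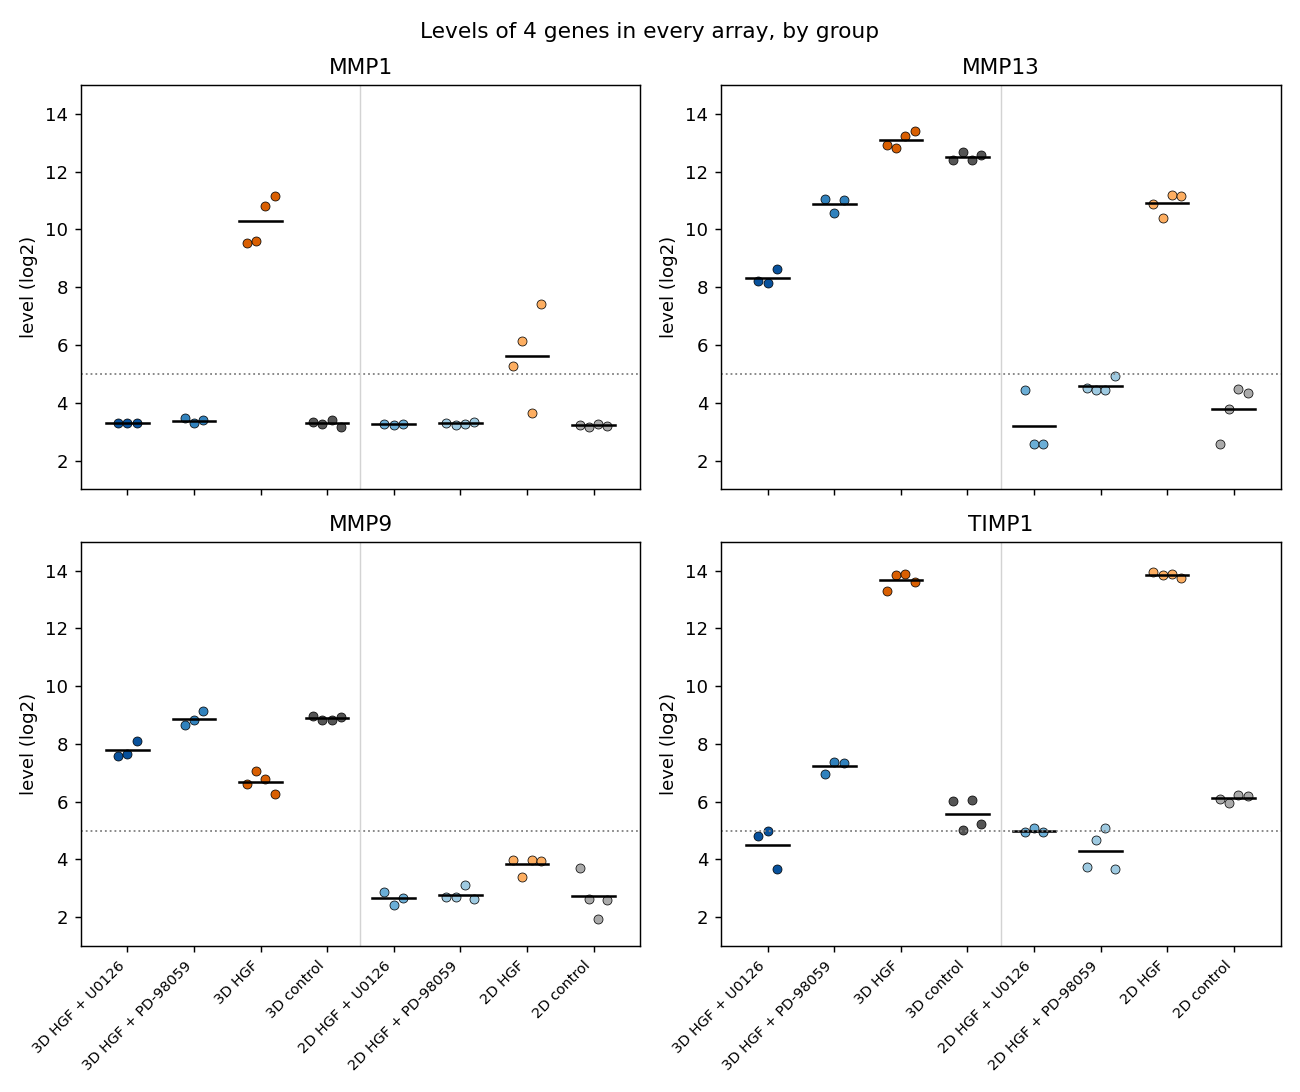
Levels of MMP1, MMP13, MMP9 and TIMP1 (log2, vertical axis) in each of 29 arrays, by group (horizontal axis, 3D left of 2D), with 1 point per array, a bar at the group mean and a dotted line at log2 5. MMP1 is above the line in 7 of the 8 HGF arrays and in no other, MMP13 and MMP9 are above it in every 3D array, and TIMP1 is between 13.30 and 13.95 in all 8 HGF arrays.

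Whether the HGF levels depended on MEK was asked by comparing each inhibitor with HGF alone. These comparisons did not choose the genes, but they use the same HGF arrays as those that did, and MMP1 passed the filter only through its HGF arrays, so that it had to be lower with an inhibitor. For MMP1 the differences from HGF are therefore a description, with no test and no part in the counts. With PD-98059 in 3D, TIMP1 fell by 6.45 ± 0.30 (87.1-fold, adjusted p = 4.66e-15) and MMP13 fell by 2.20 ± 0.37 (4.61-fold, adjusted p = 2.46e-05). MMP9 rose by 2.19 ± 0.26 (4.57-fold, adjusted p = 1.72e-07). Of all tested probe sets 15.4% fell and 26.6% rose. Among all 16571 probe sets the fall of TIMP1 was the 2nd largest, while 102 fell at least as far as MMP13. Ranks of falls from HGF, here and below, are a description, because the HGF arrays helped to choose the genes. TIMP1 had the largest rise of all with HGF in 3D, and so much room to fall. MMP1 with PD-98059 minus HGF was -6.89, with means of 3.38 with PD-98059 and 10.28 with HGF.

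With U0126 in 3D the directions were those found with PD-98059. TIMP1 fell by 9.18 ± 0.30 (581-fold, adjusted p = 2.04e-18), to a dim mean of 4.48, and MMP13 fell by 4.76 ± 0.37 (27.0-fold, adjusted p = 5.15e-11). MMP9 rose by 1.104 ± 0.26 (2.15-fold, adjusted p = 0.00102). Of all tested probe sets 23.8% fell and 25.4% rose. TIMP1 had the largest fall and MMP13 the 12th, whereas 1445 probe sets rose at least as far as MMP9. MMP1 with U0126 minus HGF was -6.98, again at the bottom of the scale with the inhibitor.

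In 2D TIMP1 and MMP13 fell with either inhibitor. With PD-98059, TIMP1 fell by 9.56 ± 0.28 (755-fold, adjusted p = 1.51e-19) and MMP13 fell by 6.33 ± 0.34 (80.6-fold, adjusted p = 2.55e-14). Of all tested probe sets 24.9% fell in that comparison. With U0126, TIMP1 fell by 8.85 ± 0.30 (463-fold, adjusted p = 3.79e-18) and MMP13 fell by 7.70 ± 0.37 (207-fold, adjusted p = 3.52e-15), where 24.3% of all tested probe sets fell. The means reached were dim for MMP13, at 4.57 with PD-98059 and 3.21 with U0126, and for TIMP1 with PD-98059, at 4.29. That of TIMP1 with U0126 was 5.0005. By the other probe set MMP13 fell 21.3-fold with PD-98059 and 20.9-fold with U0126, also to dim means. MMP9 differed by -1.05 ± 0.24 with PD-98059 (adjusted p = 0.000666) and by -1.18 ± 0.26 with U0126 (adjusted p = 0.00052), but between dim means, which are not readable as levels. MMP1 minus its HGF level was -2.34 with PD-98059 and -2.37 with U0126. TIMP1 and MMP13 were among the 6 largest falls with PD-98059 and the 4 largest with U0126.

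The size of the MMP1 difference in 2D depended on its spread. Without HGF replicate 3 it was -2.99 with PD-98059 and -3.03 with U0126, and without HGF replicate 4 it was -1.74 and -1.78. The RNA-quality index moved with the 2D HGF group, and with it as a covariate the differences with PD-98059 were -1.89 for MMP1, -6.20 for MMP13, -1.06 for MMP9 and -9.51 for TIMP1. With U0126 they were -1.96 for MMP1, -7.57 for MMP13, -1.18 for MMP9 and -8.81 for TIMP1, and those of MMP13, MMP9 and TIMP1 kept an adjusted p below 0.05.

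The levels left with an inhibitor can be set beside control only as a description, because the control arrays were used to choose the genes. In 3D, U0126 with HGF minus control was 0.01 for MMP1, -4.18 for MMP13, -1.09 for MMP9 and -1.11 for TIMP1. PD-98059 with HGF minus control in 3D was 0.10 for MMP1, -1.63 for MMP13, -0.01 for MMP9 and 1.63 for TIMP1. Both inhibitors thus went with less MMP13 than in untreated 3D cells, and PD-98059 with an MMP9 level at that of control. In 2D the same differences were 0.04 and 0.08 for MMP1 with U0126 and with PD-98059, and -1.12 and -1.82 for TIMP1.

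**Figure D2:**
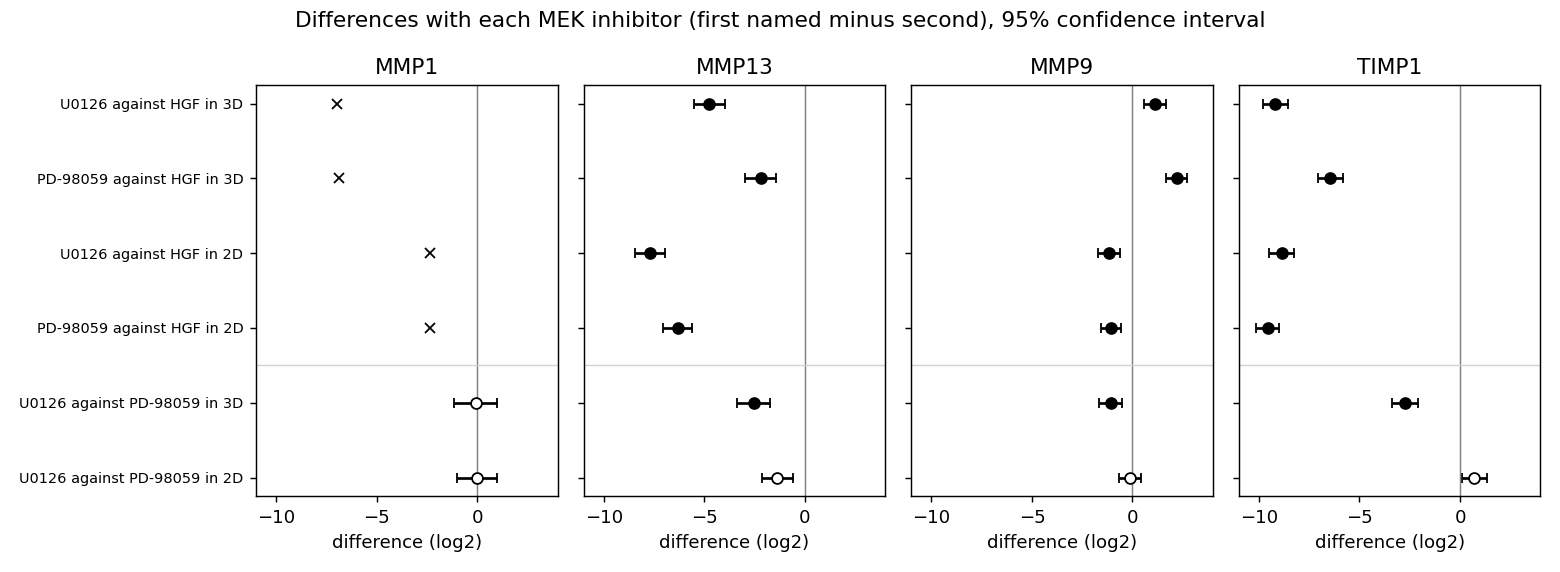
Log2 differences (horizontal axis, the group named first minus the other, with 95% confidence interval) of MMP1, MMP13, MMP9 and TIMP1 for each inhibitor against HGF and for U0126 against PD-98059 (vertical axis), with filled points where the adjusted p was below 0.05 and crosses without an interval for MMP1 against HGF, which is a description. MMP9 is the only one of the 4 genes with points right of 0 for the inhibitors in 3D, at 1.104 with U0126 and 2.19 with PD-98059, and its points in 2D, left of 0, are differences between dim means.

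The compounds were compared directly in 2 pairs, 1 in each culture, with p-values adjusted over all 16571 probe sets within a pair. As doses are not given, a difference cannot be told apart from a difference in dose. In 3D, TIMP1, MMP13 and MMP9 were lower with U0126 than with PD-98059, where 8.82% of all tested probe sets were lower. TIMP1 differed by -2.74 ± 0.32 (6.67-fold lower, adjusted p = 2.08e-06), MMP13 by -2.55 ± 0.40 (5.86-fold lower, adjusted p = 0.000101) and MMP9 by -1.09 ± 0.28 (2.12-fold lower, adjusted p = 0.0124). Their arrays did not overlap, and TIMP1 and MMP13 had the 3rd and 4th largest falls of all probe sets. The MMP9 call was lost without PD-98059 replicate 3 (-0.95, adjusted p = 0.0826), without U0126 replicate 1 (-0.99, adjusted p = 0.0639) and without U0126 replicate 2 (-1.02, adjusted p = 0.0540). MMP1 was dim with both compounds and differed by -0.08 (95% interval -1.14 to 0.98, adjusted p = 0.953).

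In 2D none of MMP13, TIMP1 and MMP9 passed, where 1.62% of all tested probe sets did. U0126 minus PD-98059 was -1.36 for MMP13 (95% interval -2.13 to -0.60, adjusted p = 0.0589), and it was -1.99 with adjusted p = 0.00155 without U0126 replicate 1, the only U0126 array above 2.58. It was 0.71 for TIMP1 (95% interval 0.09 to 1.33, adjusted p = 0.351) and -0.12 for MMP9 (-0.66 to 0.42, adjusted p = 0.963). For MMP1 it was -0.03 (-1.02 to 0.96, adjusted p = 0.999), with an interval that, as in 3D, rests mainly on its HGF arrays. All these 2D means but that of TIMP1 with U0126, at 5.0005, were dim, and a p above the threshold does not show that the compounds act alike.

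What collagen did when HGF and an inhibitor were both present was asked by comparing 3D with 2D within each inhibitor. MMP13 and MMP9 were higher in 3D with either inhibitor. MMP9 passed the filter only through its 3D arrays, so that it had to be higher in 3D. Its differences here are therefore a description, with no test and no part in the counts. With PD-98059 the difference of 3D minus 2D was 6.32 ± 0.37 for MMP13 (79.6-fold, adjusted p = 3.79e-13) and 2.93 ± 0.30 for TIMP1 (7.60-fold, adjusted p = 1.01e-08). For MMP9 it was 6.10 (68.4-fold), and all 3 differences were from dim 2D levels. MMP13 and TIMP1 thus passed, where 26.3% of all tested probe sets were higher, and the difference of MMP13 was the 4th largest. With U0126 the difference was 5.13 ± 0.40 for MMP13 (35.0-fold, adjusted p = 1.35e-10), where 17.5% of all tested probe sets were higher. For MMP9 with U0126 it was 5.13 (35.0-fold). By its other probe set MMP13 with U0126 was not called higher in 3D (0.66, adjusted p = 0.103). TIMP1 with U0126 differed by -0.52 (95% interval -1.18 to 0.15, adjusted p = 0.210). MMP1 differed by 0.10 with PD-98059 (adjusted p = 0.892) and by 0.05 with U0126 (adjusted p = 0.955), all at dim levels. As between the compounds, these p-values of MMP1 rest mainly on the spread of its HGF arrays.

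The effect of an inhibitor, inhibitor minus HGF, was also tested for a difference between the cultures. For PD-98059 the effect in 3D minus that in 2D was 4.13 ± 0.50 for MMP13 (adjusted p = 4.29e-07) and 3.12 ± 0.41 for TIMP1 (adjusted p = 1.33e-06). Both passed, where 34.2% of all tested probe sets did. The comparison includes HGF arrays that helped to choose the genes. Their 3D over 2D difference, which is subtracted here, was 2.19 for MMP13 and -0.19 for TIMP1. As a description it was 3.24 for MMP9, which passed the filter only through its 3D arrays. MMP13 and TIMP1 thus fell less in 3D, while for MMP9 the 2D side of the difference lies between dim means and gives no direction. For U0126 the difference was 2.94 ± 0.52 for MMP13 (adjusted p = 7.65e-05), where 36.5% of all tested probe sets passed, and as a description 2.28 for MMP9. By the other probe set of MMP13 the U0126 difference had the opposite sign, at -1.84. That probe set was dim with U0126 in both cultures, so the value largely restates its 3D over 2D difference with HGF, turned in sign, and is a description. In 2D the brighter probe set was dim too, at 4.57 ± 0.23 with PD-98059 (SD, n = 4) and 3.21 ± 1.08 with U0126 (SD, n = 3). TIMP1 differed by -0.33 (95% interval -1.21 to 0.55, adjusted p = 0.596). MMP1 was dim with both inhibitors in both cultures, so its values of -4.56 with PD-98059 and -4.60 with U0126 restate its 3D over 2D difference with HGF, turned in sign, and are a description.

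The other probe sets of MMP1 and MMP13 gave lower levels. For MMP1 the dimmer probe set was at 8.18, 7.77, 8.93 and 9.35 with HGF in 3D and 4.60, 2.53, 2.33 and 3.13 with HGF in 2D, and group means elsewhere were 2.32 to 2.35. As a description, its difference from HGF in 3D was -6.21 with PD-98059 and -6.22 with U0126. In 2D its differences of -0.83 with PD-98059 and -0.82 with U0126 were between dim means with overlapping arrays.

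For MMP13 the dimmer probe set had 3.60, 3.56 and 2.70 with U0126 in 3D, 7.36, 6.48 and 6.77 with PD-98059, 8.91, 9.0001, 9.56 and 10.57 with HGF, and 8.86, 8.82, 8.48 and 9.15 in control. In 2D it had 7.21, 6.36, 7.43 and 7.06 with HGF, and group means of 2.60 to 2.64 otherwise. It fell with U0126 by 6.22 ± 0.30 in 3D (adjusted p = 4.35e-15) and by 4.39 ± 0.30 in 2D (adjusted p = 3.38e-12). With U0126 in 3D it was dim, where the brighter probe set had a mean of 8.33. There the probe sets disagreed on both comparisons of 3D with 2D given above. The statement that MMP13 fell less with U0126 in 3D than in 2D, and that it was higher in 3D than in 2D with U0126, therefore rests on 1 probe set. Every MMP9 result also rests on 1 probe set, as the others of that gene had means between 1.68 and 2.01 in every group.

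**Figure D3:**
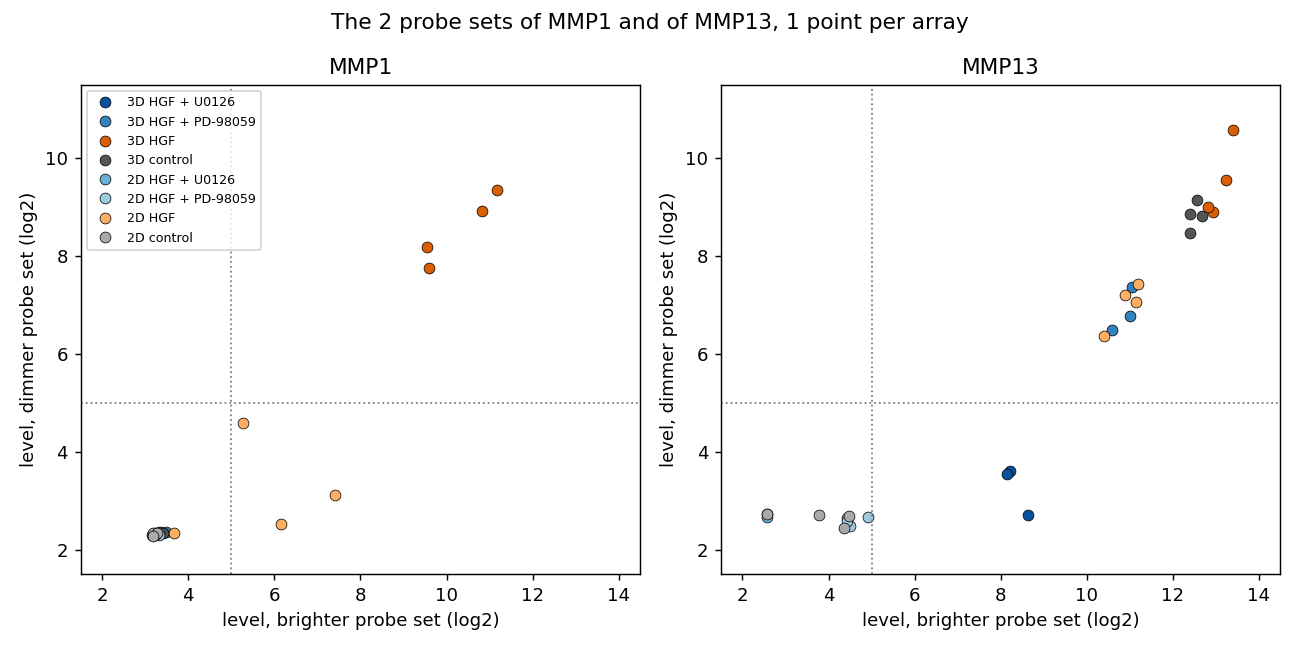
The 2 probe sets of MMP1 and of MMP13 in each of 29 arrays (both axes log2, brighter probe set horizontal, dimmer vertical), with dotted lines at log2 5. The 3 U0126 arrays in 3D lie at 8.16 to 8.63 on the brighter and 2.70 to 3.60 on the dimmer MMP13 probe set.

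The 4 genes did not share 1 pattern. As a description over the 8 group means, Pearson's r was 0.837 between MMP1 and TIMP1 and 0.773 between MMP13 and MMP9. It was 0.608 between MMP13 and TIMP1, 0.557 between MMP1 and MMP13, 0.097 between MMP1 and MMP9 and 0.026 between MMP9 and TIMP1. MMP1 and TIMP1 were both highest with HGF, and MMP13 and MMP9 were both higher in 3D than in 2D in every treatment, for MMP13 with U0126 by 1 of its probe sets only.

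The genes most like each were taken by the highest r of the 8 group means among 6861 genes, and again over 29 arrays. For MMP1 they were P4HA3, a subunit of the prolyl hydroxylase that modifies collagen (r = 0.998), GSKIP (0.993), the kinase MAP3K20 (0.990), ZEB1, a repressor of epithelial genes (0.989), and TUBE1 (0.981). P4HA3 and ZEB1 also led over 29 arrays, at 0.946 and 0.943, whereas GSKIP ranked 306th there. For MMP13 they were CAPZA1 (0.985), SERPINB1 (0.977), TXNDC9 (0.973), ANXA2 (0.970) and FEZ2 (0.964), and over 29 arrays SERPINB1, an inhibitor of neutrophil proteases, came 1st at 0.958 and DPYSL3 2nd at 0.940. For MMP9 they were BZW2 (0.990), ELF2 (0.980), the acute phase protein SAA1 (0.976), GNG2 (0.975) and the cytokine CSF2 (0.969). Over 29 arrays CSF2 led at 0.951, followed by the chemokine CCL2 at 0.948 and SAA1 at 0.946. For TIMP1 they were KBTBD2 (0.989), the ETS factor ELK3 (0.989), CCDC125 (0.987), SH3BP5 (0.982) and CDYL (0.979). Over 29 arrays ELK3 led at 0.976, followed by the laminin chain LAMA3 at 0.966. These correlations describe groups with few distinct patterns, and their arrays share treatment and culture.

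**Figure D4:**
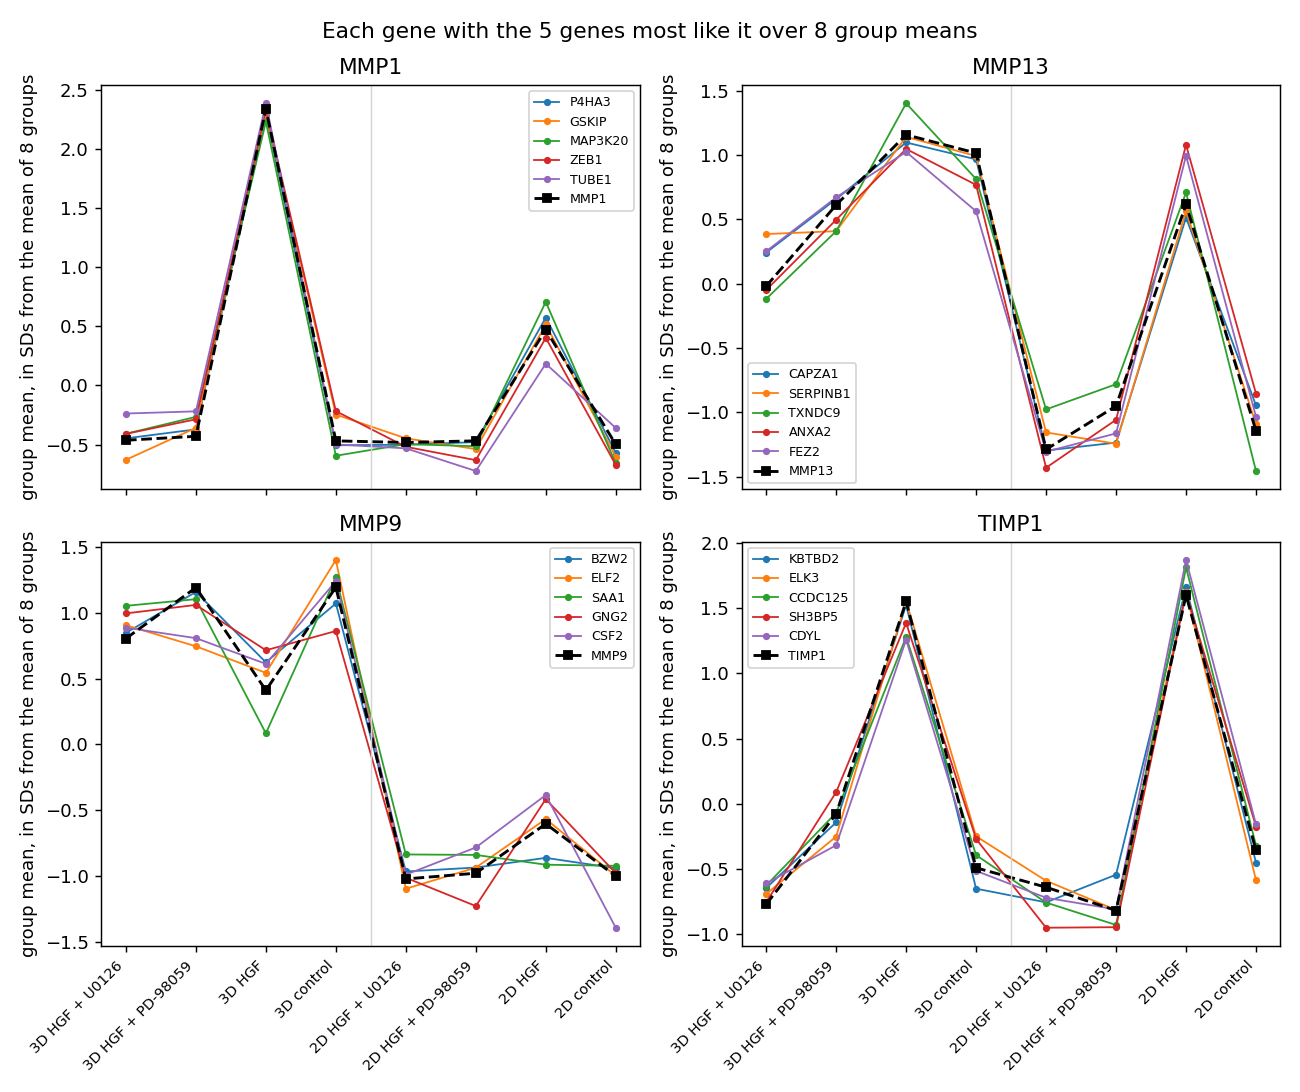
Group means of each gene and of the 5 genes most like it (vertical axis, in SDs from the mean of the 8 groups) across the 8 groups (horizontal axis). The r of these genes with MMP1 is 0.981 to 0.998 and with MMP13 0.964 to 0.985, and the MMP9 panel is the one in which all 4 groups in 3D lie above all groups in 2D.

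The 9 lists of related genes below hold 90 genes, of which many had no probe set that names only that gene or none at log2 5, so that counts are over the few that were tested. In the 10 comparisons that use an inhibitor group, the median difference over all tested probe sets was between -0.06 and 0.05. The counts of list genes stand against the shares of all tested probe sets that passed: in 3D 15.4% fell and 26.6% rose with PD-98059, and 23.8% fell and 25.4% rose with U0126. In 2D 24.9% fell and 27.6% rose with PD-98059, and 24.3% fell and 25.8% rose with U0126. Among 19 other metalloproteinases 16 had a probe set and 2 were tested, MMP2, which is also a gelatinase, and MMP17. Of the rest 13 were below log2 5 in every array, with a highest level of 3.04, and MMP28 reached 5.39, but log2 5 in fewer than 3 arrays. MMP1 and MMP13 lie in a cluster of metalloproteinase genes, in the order MMP13, MMP12, MMP3, MMP1, MMP8, MMP27, MMP20 and MMP7 in the RefSeq annotation of assembly UU_Cfam_GSD_1.0. Of their neighbours with a probe set, the highest level in any array was 2.60 for MMP3, 2.46 for MMP8, 2.00 for MMP27, 1.98 for MMP20 and 2.55 for MMP7. MMP2 had 6.43 ± 0.07 with U0126 (SD, n = 3), 6.43 ± 0.16 with PD-98059 (SD, n = 3) and 7.38 ± 0.44 with HGF (SD, n = 4) in 3D, against 6.35 ± 0.12 in control (SD, n = 4). It rose with HGF over control in 3D by 1.03 ± 0.23 (adjusted p = 0.000296), where 29.4% of all tested probe sets rose and 32.6% fell, and it fell by 0.95 ± 0.24 with PD-98059 (adjusted p = 0.0025) and by 0.95 ± 0.24 with U0126 (adjusted p = 0.00204), so that 1 of 2 fell in each, where 15.4% and 23.8% of all tested probe sets fell.

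Of 5 other inhibitors 2 were tested, TIMP2 and TIMP3. In 3D neither passed for either inhibitor, and the medians were -0.07 with PD-98059 and 0.32 with U0126. In 2D both fell with either inhibitor, with medians of -1.85 with PD-98059 and -1.69 with U0126, where 24.9% and 24.3% of all tested probe sets fell. TIMP2, which also takes part in the activation of MMP2, fell by 2.63 ± 0.22 with PD-98059 (adjusted p = 1.68e-10) and by 2.51 ± 0.24 with U0126 (adjusted p = 2.13e-09). With HGF over control TIMP2 rose by 2.07 ± 0.22 in 2D (adjusted p = 1.26e-08), where 26.3% of all tested probe sets rose, and fell by 1.499 ± 0.22 in 3D (adjusted p = 2.03e-06), to a dim 3.71, whereas the TIMP1 difference was positive in both cultures. TIMP3, which binds the matrix, was 10.14 ± 0.94 with U0126 in 3D, against 8.10 ± 0.56 with U0126 in 2D (SD, n = 3 each).

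Plasmin and furin-like enzymes activate the precursors, and 4 of 10 genes of that list were tested. In 3D, 2 fell and 1 rose with each inhibitor, and in 2D all 4 fell, with medians of -2.99 with PD-98059 and -3.24 with U0126. Of all tested probe sets 15.4% (PD-98059) and 23.8% (U0126) fell in 3D, and 24.9% and 24.3% in 2D. PLAU, the urokinase that makes plasmin, fell by 1.74 ± 0.27 with PD-98059 in 3D (adjusted p = 8.21e-06) and by 1.70 ± 0.27 with U0126 (adjusted p = 7.86e-06). SERPINE2, an inhibitor of plasminogen activators and thrombin, fell by 2.05 ± 0.13 with U0126 in 3D (adjusted p = 1.99e-12) and by 3.84 ± 0.13 in 2D (adjusted p = 6.18e-18). TFPI2, an inhibitor of plasmin and some metalloproteinases, rose by 1.01 ± 0.25 with PD-98059 in 3D (adjusted p = 0.002) and fell by 5.9998 ± 0.23 in 2D (adjusted p = 4.07e-17).

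Of 13 AP-1, ETS and RUNX2 factors the tests held FOS and JUN, and both fell with both inhibitors in both cultures, where 15.4% to 24.9% of all tested probe sets fell. FOS fell by 0.89 ± 0.10 with PD-98059 (adjusted p = 8.63e-08) and by 1.94 ± 0.10 with U0126 (adjusted p = 2.43e-14) in 3D. JUN fell by 2.51 ± 0.25 with PD-98059 (adjusted p = 9.60e-09) and by 1.51 ± 0.25 with U0126 (adjusted p = 1.98e-05) in 3D. Between the compounds in 3D, U0126 minus PD-98059 was -1.06 ± 0.11 for FOS (adjusted p = 3.39e-07), in the direction of MMP13 and TIMP1. It was 1.004 ± 0.27 for JUN (adjusted p = 0.0167), with overlapping arrays.

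The NF-kB list held 10 genes, for subunits and inhibitors and the induced gene BIRC3, and 4 were tested. In 3D 3 of them, BIRC3 included, rose and 0 fell with each inhibitor, where 26.6% (PD-98059) and 25.4% (U0126) of all tested probe sets rose. NFKBIA, the inhibitor that NF-kB itself induces, had 10.87 ± 0.20 with U0126, 10.18 ± 0.11 with PD-98059 and 8.85 ± 0.10 with HGF in 3D, against 11.23 ± 0.07 in control (SD, n = 3, 3, 4 and 4). It rose by 1.33 ± 0.10 with PD-98059 (adjusted p = 5.35e-11) and by 2.02 ± 0.10 with U0126 (adjusted p = 9.32e-15). BIRC3, another gene NF-kB induces, rose by 1.79 ± 0.16 with PD-98059 (adjusted p = 9.86e-10) and by 2.35 ± 0.16 with U0126 (adjusted p = 3.81e-12). With U0126 minus PD-98059 in 3D, NFKBIA was higher by 0.69 ± 0.11 (adjusted p = 0.000111), where MMP9 was lower. In 2D 0 of the 4 rose, and 1 fell with PD-98059 and 2 with U0126.

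Partners of these proteins at the cell surface had 4 of 8 genes tested. With PD-98059 none passed in 3D, and in 2D 2 fell and 1 rose. With U0126 2 fell in 3D, and in 2D 3 fell and 1 rose. Of all tested probe sets 23.8% fell with U0126 in 3D, and 24.9% (PD-98059) and 24.3% (U0126) fell in 2D. CD44, which holds MMP9 at the surface, fell by 1.83 ± 0.14 with PD-98059 in 2D (adjusted p = 2.93e-11) and by 0.79 ± 0.15 with U0126 in 3D (adjusted p = 0.000115). CD63, a surface partner of TIMP1, had group means between 15.01 and 15.28.

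Of 7 collagen receptors 5 were tested, and in 2D 4 fell and 1 rose with each inhibitor, where 24.9% (PD-98059) and 24.3% (U0126) of all tested probe sets fell. ITGA2, the integrin chain through which epithelial cells bind fibrillar collagen, fell by 1.35 ± 0.33 with PD-98059 in 3D (adjusted p = 0.00159) and by 1.51 ± 0.33 with U0126 (adjusted p = 0.000422), and 2 fell and 1 rose in each of these comparisons. DDR1, a receptor kinase for collagen, rose there by 0.72 ± 0.13 with PD-98059 (adjusted p = 5.15e-05). Of 7 fibrillar collagen genes 2 were tested, both for chains of type V collagen, and COL5A1 rose by 1.28 ± 0.15 with PD-98059 (adjusted p = 1.74e-07) and by 1.44 ± 0.15 with U0126 (adjusted p = 1.77e-08) in 3D. In 2D COL5A1 and COL5A2 both fell with both inhibitors. Of 11 ADAM and ADAMTS proteases 4 were tested, of which 1 rose and 0 fell with each inhibitor in 3D, near the 26.6% and 25.4% of all tested probe sets that rose, and none passed in 2D.

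**Figure D5:**
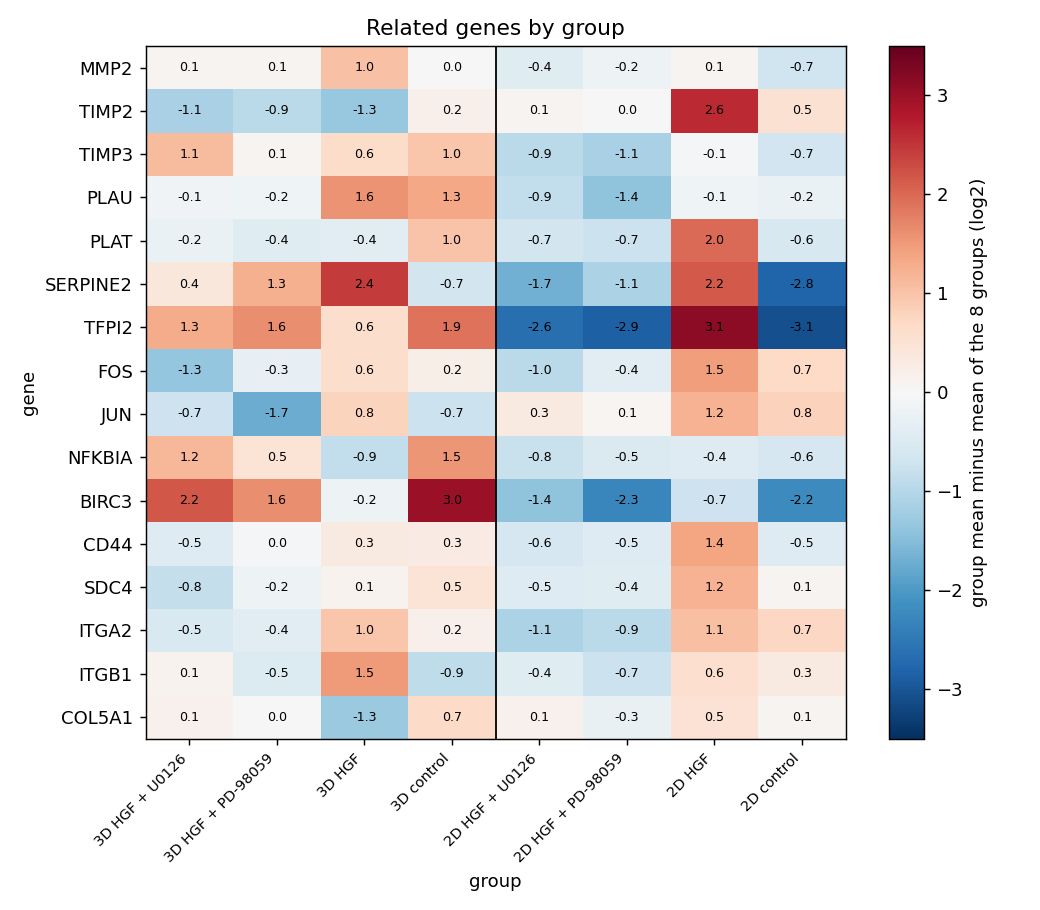
Group means of 16 related genes minus the mean of their 8 group means (log2, colour and number), by gene (vertical axis) and group (horizontal axis). Within 3D, NFKBIA and BIRC3 are lowest with HGF, as MMP9 is, and SERPINE2 is highest in the HGF groups, as TIMP1 is.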

How the data were processed

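The authors deposited a log2 level for each probe set. Per the submitters' processing notes they used GCRMA, MAS5, Partek 6.6 and Affymetrix Expression Console 1.1, with no role or order given. No further normalization was applied. Of 43035 probe sets 111 are Affymetrix controls, and 29254 of the others name 1 gene in the platform annotation. Probe sets that reached log2 5 in at least 3 of 29 arrays were tested, 16571 in all, with limma 3.58.1 in R 4.3.3 (lmFit on 8 group means, eBayes with trend, two-sided, Benjamini-Hochberg over 16571), and the fit was tested on simulated data. There were 15 comparisons, 10 of them planned as tests on the 4 genes. For MMP1 the 6 that involve HGF alone are given as a description, because MMP1 passed the filter only through HGF arrays. For MMP9 those between the cultures, within an inhibitor and for the inhibitor effects, are given as a description too. MMP9 passed the filter only through arrays of cells grown in collagen.

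The 4 genes, the gene lists and the comparisons were chosen with earlier results of these data known. List genes named are those that passed with no overlap between arrays and a mean of at least log2 5 in 1 group, up to 2 per direction and comparison. TIMP3, CD63, MMP17 and MMP28 levels, the JUN value between compounds and the lower-ranked neighbours were added to complete a count or a list. Alternatives were other filters, no variance trend, the compared groups alone, quantile normalization or median centring, array weights, both replicate numbers as a block, the RNA-quality index, other probe sets and each array left out.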

Additional observations from a re-analysis of the deposited data

Results flagged for a closer look

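An array stood apart from the other 3 of its group in 4 of 30 groups of 4 examined, where chance gives about 1 in 20, and all 4 were at dim levels. MMP13 was 4.92 in 2D PD-98059 replicate 4, against 4.43 to 4.49 in the others. Its dimmer probe set was 2.44 in 2D control replicate 4, against 2.70 to 2.73. MMP9 was 3.41 in 2D HGF replicate 2, against 3.96 to 3.996, and 3.12 in 2D PD-98059 replicate 3, against 2.62 to 2.70.

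The effect of an inhibitor differed between the cultures by limma's test of the difference for MMP13 with each inhibitor and for TIMP1 with PD-98059, with adjusted p between 4.29e-07 and 7.65e-05, where 34.2% (PD-98059) and 36.5% (U0126) of all tested probe sets passed. As the effect in 3D minus that in 2D, the values were 4.13 (PD-98059) and 2.94 (U0126) for MMP13, and 3.12 with PD-98059 for TIMP1. These comparisons include HGF arrays that helped to choose the genes, and both genes were dim in 2D with the inhibitors concerned. By the other probe set of MMP13 the U0126 value was -1.84, but that probe set was dim with U0126 in both cultures, so it is a description. For MMP9 the values were 3.24 (PD-98059) and 2.28 (U0126). They are a description too, as MMP9 was dim in all 2D groups and passed the filter only through 3D arrays. For MMP1 the values were -4.56 (PD-98059) and -4.60 (U0126), but it was dim with either inhibitor in both cultures, so they restate the difference between the cultures with HGF that chose the gene and are a description.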

How the results depend on the processing

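Of 1046 values of the 4 genes under alternatives, 1029 kept their direction and side of the threshold or moved by less than the spread, and the replicate blocks changed no call of these genes (MMP1 with PD-98059 in 3D differed by -6.72 with the title number as a block). The replicate numbers of titles and of sample names showed no pairing common to the groups. By title, correlations of deviations ran from -0.429 to 0.596 over 94 pairs (median -0.033, 31 over 0.1). By sample name they ran from -0.432 to 0.428 over 85 (median 0.001, 29 over 0.1). Pairing within single groups was not tested. For MMP13 in 2D, U0126 minus PD-98059 passed after quantile normalization (-1.36), with array weights (-1.29), with the RNA-quality index (-1.38) and without U0126 replicate 1 (-1.99, range -1.99 to -1.05 over arrays left out). By its other probe set MMP13 gave 0.66 for 3D minus 2D with U0126 and -1.84, opposite in sign, for the U0126 effect in 3D minus 2D. The latter is a description, as that probe set was dim with U0126 in both cultures. MMP9, U0126 minus PD-98059 in 3D, ranged from -1.25 to -0.95 over arrays left out, and 3 of these lost the call. The causes were not tested.

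Values without a test moved for MMP1 by the other probe set (HGF over control 6.22 in 3D and 0.83 in 2D) and with the RNA-quality index (0.50 for 3D minus 2D control). For MMP13 the other probe set gave 4.37 for HGF over control in 2D, -3.69 for its 3D minus 2D difference and 6.18 for 3D minus 2D control. Without 3D HGF replicates 1 and 4, HGF over control in 3D was -1.96 for MMP9, and 3D minus 2D with HGF was 0.017 for TIMP1, against -0.19.

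Counts of probe sets called moved by over 1.5 times in 4 comparisons. PD-98059 against HGF in 3D gave 4365 with the compared groups alone, against 6965. U0126 against PD-98059 in 3D gave 1287 with the compared groups alone and 5447 with array weights, and 910 to 2032 over arrays left out, against 1957. In 2D it gave 69 with the compared groups alone, 494 after quantile normalization, 519 with array weights, 471 with the RNA-quality index, and 165 to 312 over arrays left out, against 269. 3D against 2D with HGF gave 23761 without a filter, against 10703. MMP9's other 2 probe sets, below the filter, were not tested. Low signal limits MMP1, MMP9 and MMP13 in 2D.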
